A study of Pleurotus tuoliensis with 2 samples.

Results

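The respiratory chain and ATP synthase of *P. tuoliensis* were represented by 63 of the 17030 assembled unigenes. A unigene is the longest transcript of a group of assembled reads and stands for a gene or a piece of one. These 63 unigenes were chosen by words in the name of their best Swiss-Prot match (NADH dehydrogenase, NADH-ubiquinone, cytochrome b, cytochrome b-c1, cytochrome c oxidase, ATP synthase, alternative oxidase, ubiquinol oxidase or ubiquinone oxidoreductase, without b5 or P450), with a mean above 1 FPKM over the 6 libraries. FPKM is a level per length of transcript and per depth of the library. All 63 unigenes with such a name lay above that limit, as did 16496 unigenes of the table, which were tested. By name the 63 fell into 20 unigenes of complex I, 4 of alternative NADH dehydrogenases, 3 of membrane anchors of complex II and 5 of complex III. There were 4 of complex IV, 11 of ATP synthase, 7 of assembly factors, 2 of alternative oxidase, 2 of electron transfer flavoprotein-ubiquinone oxidoreductase and 5 of cytochrome b2. Some subunits were matched by more than 1 unigene.

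Strain ACCC 50869 was grown in the dark at 25 °C for 37 days in bottles of 820 g substrate. Immature mycelia came from 3 bottles at that point (day 0), and mature mycelia from 3 other bottles kept for a further 35 days at 17 °C in the dark. Both groups carry the same strain and received no other agent. Maturity, temperature and age of the culture changed together, so their effects cannot be told apart. In such bulk samples, fewer hyphae of a kind and less RNA per hypha cannot be told apart either.

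In the respiratory chain, complex I takes electrons from NADH and complex II takes them from succinate, both pass them through ubiquinone to complex III, and cytochrome c carries them on to complex IV, which reduces oxygen. Complexes I, III and IV pump protons across the inner mitochondrial membrane, and ATP synthase uses the returning protons to make ATP. Fungi also have alternative NADH dehydrogenases and an alternative oxidase that carry electrons without pumping protons, and cytochrome b2, known from yeasts, oxidizes lactate and hands its electrons to cytochrome c.

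The unigenes were well expressed for this table. Their median level was 90.9 FPKM against 28.1 FPKM for all unigenes tested, and their median spread between bottles of a group was 0.195 on the log2 scale against 0.251. Their length ran from 204 to 3664 bases with a median of 949, and 13 of them were shorter than 500 bases. The best Nr match was a *Pleurotus* protein for 58 of the 63. They matched 55 different Nr proteins, and 8 of these proteins were matched by a pair of unigenes each, 16 unigenes in all. Such pairs can be pieces or alleles of 1 gene, and reads may have been divided between them. Summed FPKM of a library lay between 1206300 and 1238510, and read counts were not used here, so how many fragments lie behind each level is unknown.

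The external alternative NADH dehydrogenase (DN7204_c1_g1), which oxidizes cytosolic NADH at the outer face of the inner membrane, had the highest level with a mean of 1145 FPKM. The next highest were ATP synthase subunit f (DN10475_c0_g1) with 619 FPKM, the complex II anchor SDH3 (DN1955_c0_g1) with 345 FPKM and the other anchor SDH4 (DN6186_c0_g1) with 329 FPKM. COX5 of complex IV (DN5025_c0_g1) had 303 FPKM. Below it the complex I subunit NDUFA8 (DN7251_c0_g2), QCR9 of complex III (DN7229_c1_g1) and ATP synthase subunit J (DN849_c0_g1) had 287, 286 and 284 FPKM, and these 3 ranges over the bottles overlapped. The lowest level was that of an alternative oxidase unigene (DN4563_c0_g2) with 1.61 FPKM. An electron transfer flavoprotein-ubiquinone oxidoreductase unigene (DN5665_c0_g1) with 5.57 FPKM and the other alternative oxidase unigene (DN4563_c0_g1) with 6.725 FPKM came next. The plot of levels by complex shows both groups.

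**Figure D1:**
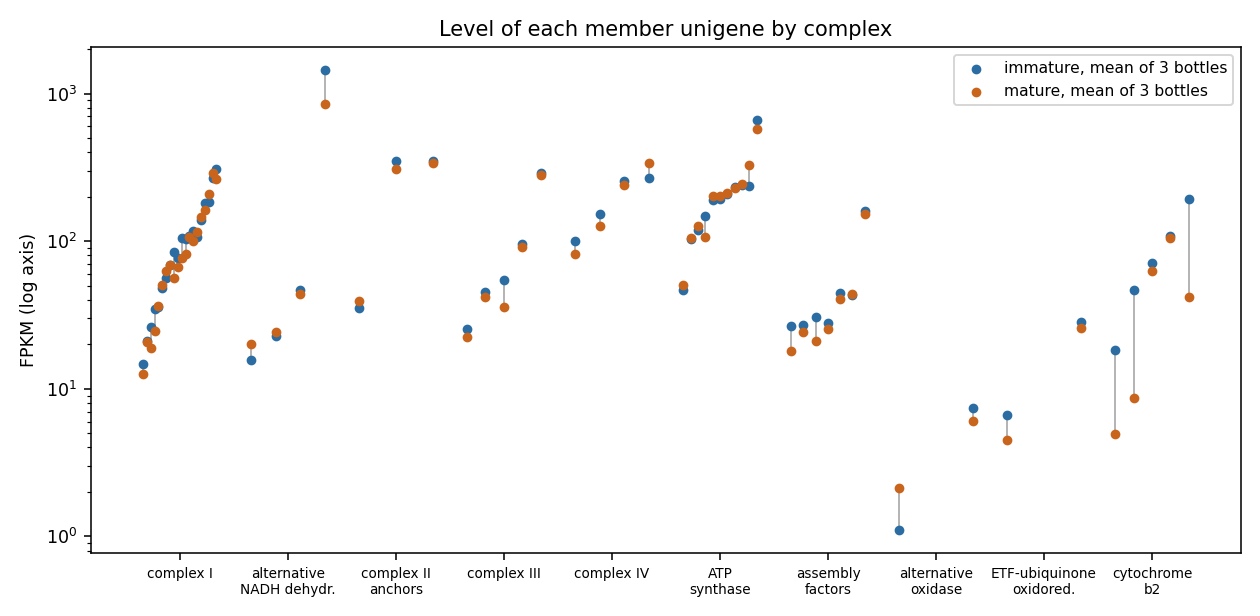
Mean FPKM of each of the 63 unigenes (log axis) in immature and mature mycelia, 3 bottles each, grouped by complex and joined by a line for each unigene; the bottle values of the alternative oxidase unigene listed at 0 in 4 libraries are averaged here too. Most pairs of points lie close together, and 3 of the cytochrome b2 unigenes are the most widely separated.

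The summed levels of the unigenes of complexes I, III and IV and of ATP synthase overlapped between the groups. None (0) of the 63 bears the name of a subunit encoded by mitochondrial DNA, and cytochrome c1 was counted apart. These sums therefore cover only part of each complex. Among single unigenes, 3 of 5 cytochrome b2 unigenes were far lower in mature mycelia. Tested by limma on log2(FPKM + 1) across all 16496 unigenes, 0 of the 63 were higher at a Benjamini-Hochberg adjusted p under 0.05, beside 0.0485% of all unigenes tested, and 0 were lower, beside 0.0182%. At the cutoffs given in the study methods, unadjusted p values up to 0.05 and log2 ratios of 1 or more in size, 3 of the 63 were lower, beside 1.82% of all unigenes, and 0 were higher, beside 1.18%. An unadjusted p of at most 0.05 alone was reached by 8 unigenes that were lower (12.7% of them, beside 9.33% of all) and by 1 that was higher (1.59%, beside 6.09%). Without cytochrome b2, 5 of the other 58 were lower at that p, or 8.62%, which is near the share of all unigenes, and 1 was higher.

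The values of the immature and mature bottles did not overlap for 13 unigenes that were lower in mature mycelia (20.6%, beside 14.2% of all unigenes) and for 4 that were higher (6.35%, beside 8.69%). Without cytochrome b2, 9 of the other 58 were separated and lower, or 15.5%, which is near the share of all unigenes. The 4 higher ones were then 6.90%. The median log2 ratio, mature minus immature, was −0.12 over the 63 unigenes and −0.06 without cytochrome b2, beside −0.07 over all unigenes tested. The smallest p that exact two-sided permutation of 3 and 3 bottles allows is 0.1, so single unigenes were not tested that way. The plot of log2 ratios by complex shows every unigene with its standard error (SE).

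**Figure D2:**
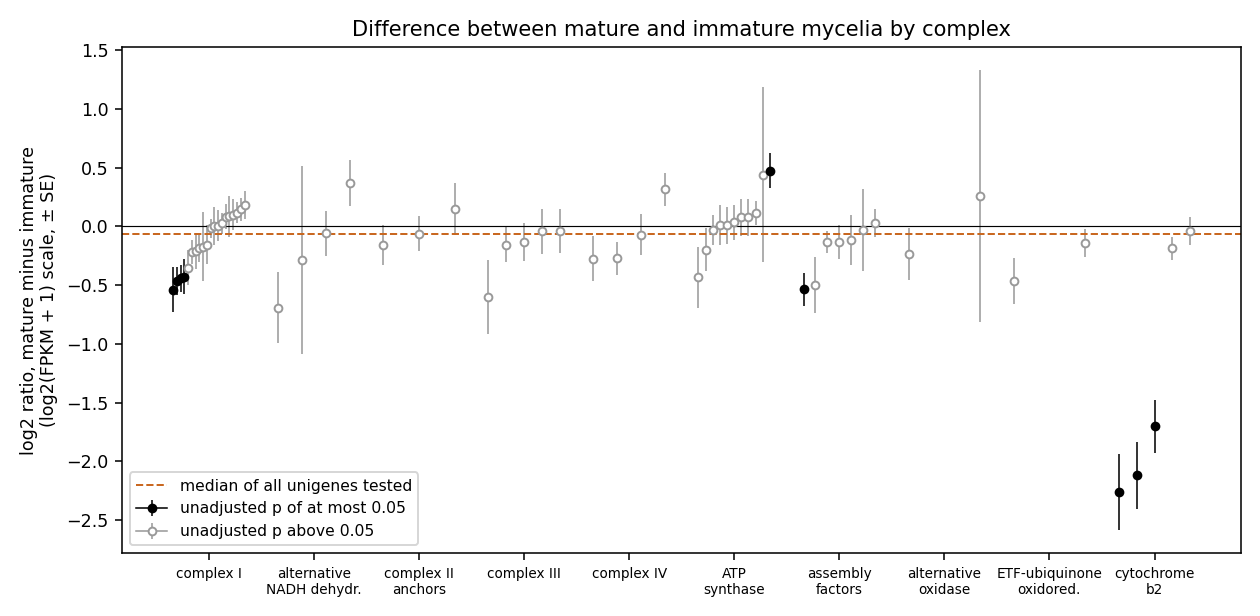
Log2 ratio of each unigene, mature minus immature on the log2(FPKM + 1) scale, with its SE, by complex (3 bottles per group). Filled points have an unadjusted p of at most 0.05; the dashed line is the median of all unigenes tested, −0.07. The 3 lowest points are cytochrome b2 unigenes.

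Cytochrome b2 entered the set through the words cytochrome b in its name and is no subunit of complex III. The Swiss-Prot match of these unigenes is the enzyme of the yeast *Wickerhamomyces anomalus*. The 5 unigenes divided into 3 that were lower at the study's thresholds and 2 with small differences, as the plot of cytochrome b2 by bottle shows.

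DN6330_c1_g1 had 68.71, 38.07 and 32.64 FPKM in immature bottles 1, 2 and 3 and 6.4, 11.18 and 8.2 FPKM in mature bottles 1, 2 and 3. Every mature bottle lay far below every immature bottle, and immature bottle 1 stood highest. The mean was 46.5 ± 19.4 FPKM (SD, n = 3) in immature and 8.59 ± 2.41 FPKM (SD, n = 3) in mature mycelia, so the immature mean was 5.41 times the mature one. The log2 ratio was −2.26 (SE 0.33, limma adjusted p = 0.0915).

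DN8918_c1_g3, the cytochrome b2 unigene with the highest level, had 271.17, 179.47 and 126.47 FPKM in immature and 48.04, 42.07 and 34.95 in mature bottles. The groups did not overlap, and immature bottle 1 was again the highest. The means were 192 ± 73.2 and 41.7 ± 6.55 FPKM (SD, n = 3 each), with a log2 ratio of −2.12 (SE 0.29, limma adjusted p = 0.0886). Its GO terms are hydrolase activity and a metabolic process, whereas those of the other 4 unigenes include heme or FMN binding or oxidoreductase activity, so its name as cytochrome b2 rests on the Swiss-Prot match.

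DN8870_c0_g7 had 22.39, 17.13 and 15.52 FPKM in immature and 3.77, 5.16 and 5.89 in mature bottles. The groups were again far apart. The means were 18.3 ± 3.59 and 4.94 ± 1.08 FPKM (SD, n = 3 each), with a log2 ratio of −1.70 (SE 0.22, limma adjusted p = 0.0846). This unigene and DN6330_c1_g1 share their best Nr protein, so the 3 unigenes stand for 2 proteins.

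These 3 unigenes kept an unadjusted p of at most 0.05 when any 1 of the 6 bottles was left out, as fitted by limma. When only unigenes of at least 500 bases were fitted, the limma adjusted p was 0.0320 for DN6330_c1_g1, 0.0286 for DN8918_c1_g3 and 0.0240 for DN8870_c0_g7, so all 3 passed 0.05 there.

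The other cytochrome b2 unigenes had small differences. DN8655_c0_g1 had 104.75, 99.67 and 121.58 FPKM in immature and 104.97, 96.49 and 115.44 in mature bottles, which overlapped (log2 ratio −0.04, SE 0.12, limma adjusted p = 0.896). DN8918_c1_g2 had 68.13, 70.14 and 74.92 FPKM and then 65.17, 56.51 and 65.44 FPKM. Its mature bottles all lay just below the immature ones, with a log2 ratio of −0.19 (SE 0.10, limma adjusted p = 0.419). The 5 unigenes summed to 437 ± 86.7 FPKM in the immature and 223 ± 10.3 FPKM in the mature group (SD, n = 3 each). Most of the difference between these sums came from DN8918_c1_g3, whose name rests on the Swiss-Prot match alone. Among the 5, only DN8918_c1_g2, which differed little, has a KEGG entry (K00101).

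**Figure D3:**
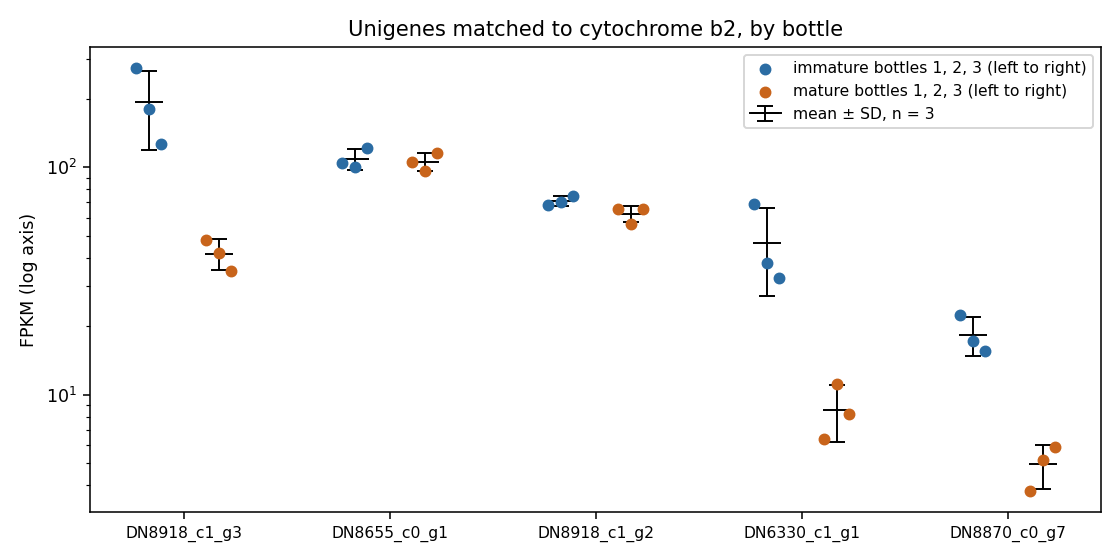
FPKM (log axis) of the 5 cytochrome b2 unigenes in each bottle, with the mean and SD of 3 bottles per group. For DN8918_c1_g3, DN6330_c1_g1 and DN8870_c0_g7 the mature bottles lie far below the immature ones; the other unigenes differ little.

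Complex I is the largest of the complexes and the entry point for NADH made in the matrix. Its 20 unigenes, named here after the human or fungal subunit, ranged from 13.8 to 287 FPKM in mean level. At an unadjusted p of at most 0.05, 4 of them were lower in mature mycelia (20%, beside 9.33% of all unigenes) and 0 were higher (beside 6.09%). Their bottles did not overlap for 6 lower (30%, beside 14.2%) and 2 higher unigenes (10%, beside 8.69%). The median log2 ratio was −0.09. The sum of these complex I unigenes was 2090 ± 238 FPKM in the immature and 1971 ± 30.8 FPKM in the mature group (SD, n = 3 each), with overlapping bottles.

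NDUFV1 (DN4481_c0_g1), the subunit that binds NADH and FMN, had 31.12, 38.05 and 34.9 FPKM in immature and 23.3, 25.7 and 25.42 in mature bottles. All mature bottles lay below all immature ones, at a log2 ratio of −0.46 (SE 0.12, limma adjusted p = 0.190).

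NUZM (DN9288_c2_g2), an accessory subunit known from fungi, had 24.91, 28.01 and 25.45 FPKM and then 20.26, 17.21 and 19.43 FPKM. The groups did not overlap, at a log2 ratio of −0.44 (SE 0.12, limma adjusted p = 0.199), and NDUFV1 and NUZM kept an unadjusted p of at most 0.05 without any 1 bottle.

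NDUFA5 (DN172_c0_g1), an accessory subunit of the peripheral arm, had 90.52, 126 and 97.81 FPKM and then 79.58, 81.6 and 70.09 FPKM. The groups were separated, with immature bottle 2 highest, and the log2 ratio was −0.43 (SE 0.15, limma adjusted p = 0.270), and the unadjusted p was at most 0.05 in 4 of the 6 fits without 1 bottle.

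The other subunits of the NADH-oxidizing and iron-sulfur part did not follow a common direction. NDUFS1 (DN1188_c0_g1), which carries iron-sulfur clusters, had 105.31, 108.56 and 110.62 FPKM and then 111.76, 105.93 and 103.39 FPKM, with a log2 ratio of −0.02. NDUFV2 (DN9064_c0_g1), the partner flavoprotein subunit, had a log2 ratio of 0.01 with means of 69.3 and 69.0 FPKM. The groups overlapped for both.

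NDUFS7 (DN6572_c0_g1), which holds the last iron-sulfur cluster before ubiquinone, had 99.68, 111.51 and 108.86 FPKM in immature and 112.33, 119.37 and 114.96 in mature bottles. Its mature bottles were all slightly higher (log2 ratio 0.12, SE 0.09, limma adjusted p = 0.573). NDUFA12 (DN8012_c0_g1), an accessory subunit, had 159.85, 193.14 and 201.35 FPKM and then 210.58, 209.39 and 206.49 FPKM. Its groups did not overlap either, with a log2 ratio of 0.18 (SE 0.12, limma adjusted p = 0.486).

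The 2 unigenes of NDUFS3, a core subunit, differed from each other in their log2 ratios. DN5889_c0_g5 had 114.13, 129.15 and 107.09 FPKM and then 97.59, 101.8 and 101.27 FPKM, with a log2 ratio of −0.21 (limma adjusted p = 0.366). DN5889_c0_g1 had 55.97, 61.09 and 52.75 FPKM and then 60.38, 62.32 and 65.23 FPKM, with a log2 ratio of 0.15 (limma adjusted p = 0.506). Only the bottles of DN5889_c0_g5 were separated between the groups, and the difference between the unigenes was not tested.

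NDUFA9 (DN7059_c0_g1), an accessory subunit, was the last complex I unigene whose bottles were separated. It had 91.96, 116.32 and 104.19 FPKM and then 68.5, 89.02 and 87.46 FPKM, with a log2 ratio of −0.35 (limma adjusted p = 0.332). The pair of NDUFS8 unigenes, a core iron-sulfur subunit, shared an Nr protein but differed in level. Means in immature and mature mycelia were 138 and 146 FPKM for DN2057_c0_g1 and 14.8 and 12.7 FPKM for DN2245_c0_g1, and both pairs of groups overlapped. The highest complex I unigene, NDUFA8, had means of 309 ± 53.4 and 265 ± 16.1 FPKM (SD, n = 3 each) with overlapping bottles. The other 6 subunits, NUJM, NDUFS4, NUXM, NDUFA2, NDUFA3 and NDUFA6, had log2 ratios between −0.19 and 0.10, and their bottles overlapped too.

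The alternative NADH dehydrogenases offer NADH a way to ubiquinone without complex I. The external enzyme DN7204_c1_g1 had 883.31, 1777.84 and 1646.7 FPKM in immature and 1001.01, 793.72 and 767.33 in mature bottles. Immature bottles 2 and 3 were far above all mature bottles, but immature bottle 1 lay among them, so the groups overlapped. The log2 ratio was −0.69 (SE 0.30, limma adjusted p = 0.343). Without immature bottle 1 it was −1.01 and passed an unadjusted p of 0.05 (limma adjusted p = 0.158). That was the only 1 of the 6 fits without 1 bottle to pass, and without immature bottle 2 the log2 ratio was −0.51.

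The 2 unigenes matched to NDB1, an external enzyme of plants that also takes NADPH, share an Nr protein. DN3496_c0_g2 had 11.31, 18.62 and 16.96 FPKM and then 19.13, 20.08 and 21.1 FPKM, each mature bottle above the immature ones (log2 ratio 0.37, SE 0.20, limma adjusted p = 0.419). DN7917_c0_g2, a short unigene of 322 bases, had 23.05, 31.98 and 13.57 FPKM and then 41.52, 27.25 and 4.3 FPKM, which are spread too widely to show a difference. The bacterial-type NADH dehydrogenase-like DN3978_c0_g1 had means of 46.5 ± 10.9 and 43.9 ± 3.02 FPKM (SD, n = 3 each), and its groups overlapped. The sum of the 4 unigenes was 1521 ± 480 FPKM in the immature and 942 ± 141 FPKM in the mature group, most of it from the external enzyme.

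Complex II oxidizes succinate and joins the citrate cycle to the chain, and its membrane anchors bind ubiquinone. SDH3 had 331.42, 385.48 and 336.48 FPKM and then 378.44, 353.9 and 283.17 FPKM. SDH4 on DN6186_c0_g1 had 268.96, 399.91 and 380.32 FPKM and then 318.75, 292.73 and 314.7 FPKM. Both overlapped between the groups, as did the second SDH4 unigene DN8555_c0_g1, which shares the Nr protein of the first and had means of 35.2 and 39.4 FPKM.

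The catalytic subunits of complex II bear other Swiss-Prot words and were counted apart from the 63, with its assembly factors, as a list of 8 unigenes. Of these, 2 were lower at an unadjusted p of at most 0.05 (beside 9.33% of all unigenes) and 0 were higher (beside 6.09%). The median log2 ratio of the list was −0.16. The flavoprotein unigene DN4045_c0_g2, the subunit that binds succinate, had 79.19, 102.48 and 72.19 FPKM and then 55.11, 62.12 and 56.99 FPKM without overlap (log2 ratio −0.52, SE 0.15, limma adjusted p = 0.215). Other flavoprotein unigenes had smaller differences, with log2 ratios of −0.15 for DN9213_c1_g1, −0.06 for DN4045_c0_g1 and −0.09 for DN4292_c0_g1, all with overlapping bottles.

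The iron-sulfur subunit passes the electrons of succinate on to ubiquinone. Its unigene DN6521_c0_g1 had 607.24, 768.59 and 629.59 FPKM and then 578.19, 529.99 and 509.73 FPKM, separated but past no threshold (log2 ratio −0.30, limma adjusted p = 0.360). DN6521_c0_g2 had 66.93, 65.59 and 61.48 FPKM and then 59.94, 47.34 and 47.18 FPKM (log2 ratio −0.33, SE 0.12, limma adjusted p = 0.290). Its unadjusted p was at most 0.05 with all bottles and in 1 of 6 fits without 1 bottle. The assembly factors 3 (DN4280_c0_g1) and 2 (DN1294_c0_g1) had log2 ratios of 0.15 and −0.16 and did not pass the unadjusted threshold.

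Complex III moves electrons from ubiquinol to cytochrome c. None (0) of its 5 unigenes reached an unadjusted p of at most 0.05 by limma or separated the groups. Of all unigenes tested, 9.33% were lower and 6.09% higher at that p, and 14.2% and 8.69% were separated in these directions. QCR9 had 225.6, 329.19 and 319.39 FPKM and then 238.11, 304.6 and 299.51 FPKM. The Rieske iron-sulfur subunit (DN8599_c0_g1), which takes the first electron, had 47.49, 42.79 and 45.76 FPKM and then 32.42, 47.25 and 45.59 FPKM, with mature bottle 1 alone low. QCR7 (DN5384_c0_g1) had means of 96.1 and 91.9 FPKM.

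The 2 unigenes of QCR2, a core subunit without a redox group, share an Nr protein. The longer, DN5201_c0_g1, had 20.65, 28.27 and 26.98 FPKM and then 21.29, 22.17 and 23.82 FPKM. The shorter, DN5201_c0_g2, had 53.91, 72.9 and 38.04 FPKM and then 25.42, 33.86 and 48.59 FPKM. Its log2 ratio of −0.60 (SE 0.31, limma adjusted p = 0.410) was the lowest of the complex, with overlapping bottles. The sum of the complex III unigenes among the members was 513 ± 86.5 and 473 ± 59.8 FPKM (SD, n = 3 each).

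A list of 3 further unigenes held cytochrome c, cytochrome c1 and a heme lyase, with 0 past an unadjusted p of 0.05 by limma and 0 at an adjusted p under 0.05. At that unadjusted p, 9.33% of all unigenes tested were lower and 6.09% higher. Cytochrome c (DN3305_c0_g1), the carrier between complexes III and IV, had 85.59, 107.93 and 107.8 FPKM and then 89.06, 124.87 and 114.74 FPKM. Cytochrome c1 (DN3576_c0_g1), the complex III subunit that delivers electrons to it, had 101.77, 172.71 and 133.79 FPKM and then 82.72, 109.39 and 110 FPKM. The groups overlapped for both, and also for the cytochrome c heme lyase (DN8951_c0_g1), which attaches heme to cytochrome c, with means of 55.5 and 51.1 FPKM.

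Complex IV reduces oxygen to water. Its 4 unigenes all overlapped between the groups, while 14.2% of all unigenes tested were separated and lower and 8.69% separated and higher. The sum of the 4 was 776 ± 84.9 FPKM in the immature and 786 ± 79.6 FPKM in the mature group (SD, n = 3 each). COX5, a nuclear-encoded subunit with isoforms in yeast, had 255.98, 266.81 and 283.66 FPKM and then 279.44, 359 and 372.94 FPKM. Mature bottles 2 and 3 were above all immature bottles and mature bottle 1 was not (log2 ratio 0.32, SE 0.14, limma adjusted p = 0.349). Without mature bottle 1 the log2 ratio was 0.44 and the unadjusted p by limma was under 0.05. That was the only 1 of the 6 fits without 1 bottle to pass, and without mature bottle 3 the log2 ratio was 0.24. COX4 (DN7463_c0_g3), COX6 (DN1282_c0_g1) and COX6A (DN6486_c0_g1) had log2 ratios of −0.07, −0.27 and −0.27.

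The assembly factors put cofactors and subunits into these complexes. Of 7 unigenes, 0 were higher at an unadjusted p of at most 0.05 (beside 6.09% of all unigenes) and 1 was lower (beside 9.33%). This was a unigene of COX15 (DN3080_c0_g1), an enzyme of heme A synthesis for complex IV, which had 23.45, 30.61 and 25.54 FPKM and then 16.59, 19.13 and 18.02 FPKM. The groups did not overlap, and the log2 ratio was −0.54 (SE 0.14, limma adjusted p = 0.194), with an unadjusted p of at most 0.05 in all 6 fits without 1 bottle. The other COX15 unigene, DN2131_c0_g1, shares its Nr protein and had 19.64, 32.44 and 28.52 FPKM and then 21.31, 27.6 and 24.14 FPKM, with overlap (log2 ratio −0.12, limma adjusted p = 0.821).

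The copper-handling factors COX23 (DN7833_c0_g3), COX11 (DN10005_c0_g1) and COA6 (DN6421_c0_g1) had log2 ratios of −0.13, −0.13 and −0.50, none (0) past an unadjusted p of 0.05 by limma. Only the bottles of COX23 were separated. ATPAF2 (DN8460_c0_g1), a chaperone for the ATP synthase alpha subunit, had the highest level of these factors, with 93.72, 210.16 and 177.02 FPKM and then 204.38, 122.86 and 131.2 FPKM, fully overlapping. NDUFAF6 (DN7844_c2_g1), an assembly factor of complex I, had means of 43.0 and 44.1 FPKM.

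ATP synthase consists of a catalytic head with alpha, beta, gamma and delta subunits, a membrane part and a stalk that joins them. Its 11 unigenes had a median log2 ratio of 0.03 and a sum of 2387 ± 384 FPKM in the immature and 2384 ± 316 FPKM in the mature group (SD, n = 3 each). Subunit J (DN849_c0_g1), a small membrane subunit, was the 1 member of the 63 that was higher at an unadjusted p of at most 0.05. It had 196.29, 258.47 and 259.57 FPKM in immature and 294.57, 354.61 and 340.38 in mature bottles. Each mature bottle exceeded each immature bottle, with bottle 1 the lowest in both groups. The log2 ratio was 0.48 (SE 0.15, limma adjusted p = 0.246). The unadjusted p was above 0.05 without mature bottle 2 or without mature bottle 3.

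The catalytic subunits were level. Alpha (DN7816_c0_g1) had 225.22, 232.39 and 244.54 FPKM and then 193.58, 245.79 and 252.42 FPKM, with a log2 ratio of −0.03. Beta (DN6974_c0_g1), which carries the catalytic sites, had 172.55, 190.97 and 207.71 FPKM and then 162.67, 218.6 and 226.71 FPKM, with a log2 ratio of 0.08. The groups overlapped for both, with mature bottle 1 lowest of the 6.

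DN6974_c0_g2, which shares its Nr protein with that beta unigene, had a log2 ratio of 0.08 as well. A further beta unigene of 204 bases, DN6974_c0_g3, had 44.19, 190.82 and 345.88 FPKM and then 149.15, 280.74 and 176.74 FPKM, so its log2 ratio of 0.44 had an SE of 0.75. Gamma (DN2602_c0_g1), the rotating shaft, had means of 207 and 212 FPKM, and delta (DN1030_c0_g1) had 148 ± 45.4 and 107 ± 18.0 FPKM (SD, n = 3 each). Both overlapped between the groups and had an unadjusted p above 0.05.

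Among the stalk and membrane subunits, subunit 4 (DN3739_c0_g1), subunit d (DN4910_c0_g2) and subunit O (DN5383_c0_g1) had log2 ratios of 0.01, 0.01 and 0.12. Subunit f, the second highest unigene of the 63, had 589.28, 819.14 and 582.14 FPKM and then 507.71, 571.39 and 641.96 FPKM. The bottles overlapped in each case. Apart from subunit J, none (0) of these 11 unigenes had separated groups, beside 14.2% of all unigenes that were separated and lower and 8.69% separated and higher.

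**Figure D4:**
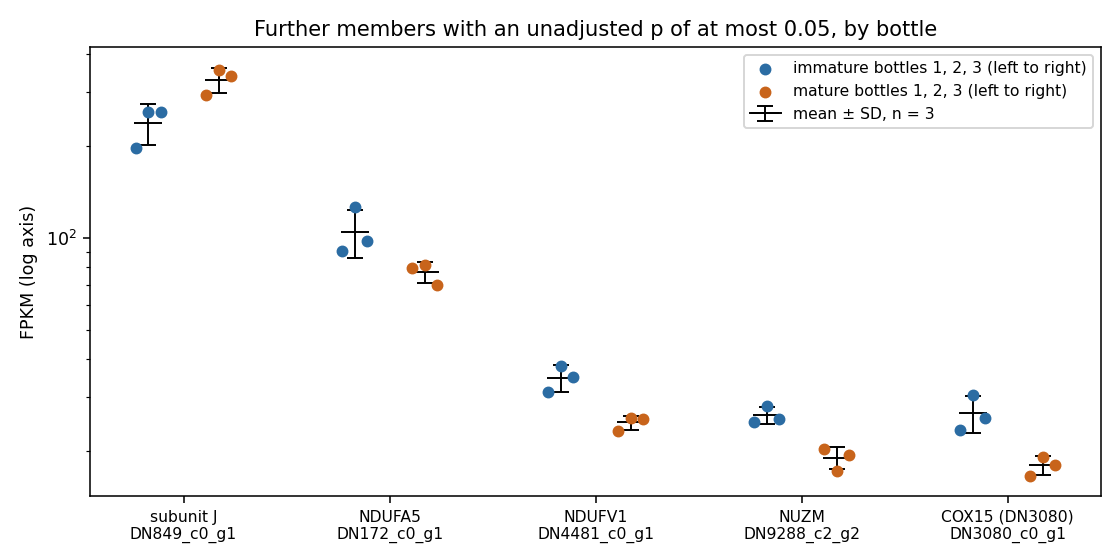
FPKM (log axis) in each bottle of 5 unigenes other than cytochrome b2 with an unadjusted p of at most 0.05, with the mean and SD of 3 bottles per group. Subunit J of ATP synthase lies higher in the mature bottles, and 3 complex I subunits and a COX15 unigene lie lower.

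The alternative oxidase passes electrons from ubiquinol straight to oxygen. DN4563_c0_g1 had 8.96, 6.02 and 7.15 FPKM and then 5.75, 5.31 and 7.16 FPKM, overlapping and with a log2 ratio of −0.24 (SE 0.22, limma adjusted p = 0.625). DN4563_c0_g2, a unigene of 264 bases matched to the same Nr protein, was listed at 0 in 4 libraries, at 3.3 FPKM in immature bottle 2 and at 6.34 FPKM in mature bottle 2. The smallest values above 0 among unigenes of 259 to 269 bases were 2.54 to 3.87 FPKM in the 6 libraries, so these values rest on very few fragments. It was also the unigene nearest the limit of 1 FPKM, with a mean of 1.61.

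Electron transfer flavoprotein-ubiquinone oxidoreductase passes electrons from fatty acid and amino acid oxidation to ubiquinone. DN5665_c0_g1 had 7.42, 6.58 and 5.88 FPKM and then 4.36, 4.43 and 4.73 FPKM, each mature bottle below each immature one (log2 ratio −0.47, SE 0.20, limma adjusted p = 0.332). DN5665_c0_g2 had 30.77, 28 and 26.1 FPKM and then 23.28, 27.31 and 26.25 FPKM, with overlap and a log2 ratio of −0.14.

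Many of the 63 unigenes had their lowest value in the same bottle. Immature bottle 1 held the lowest of the 3 immature values in 43 of the 63 unigenes (68.3%), beside 33.3% of all unigenes tested. Mature bottle 1 held the lowest mature value in 37 of the 63 (58.7%), beside 34.5%. For ATP synthase these counts were 10 and 11 of 11, for complex I 15 and 8 of 20, for complex III 3 and 5 of 5, and for complex IV 4 and 2 of 4. Cytochrome b2 differed, with immature bottle 1 lowest in 1 of 5 unigenes.

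The median deviation from the group mean on the log2(FPKM + 1) scale was −0.17, 0.14 and 0.06 for ATP synthase in immature bottles 1, 2 and 3, and −0.24, 0.12 and 0.14 in mature bottles 1, 2 and 3. For complex I it was −0.12, 0.14 and 0.01 in the immature and 0.01, 0.01 and 0.00 in the mature bottles. Bottle 1 was thus low in both groups for ATP synthase but only in the immature group for complex I, as the plot of deviations by bottle shows. The FPKM summed over all 63 unigenes were 7353, 9976 and 9262 in the immature and 7553, 8038 and 7903 in the mature bottles. Immature bottle 1 was the lowest of the 6, and the other immature bottles were the highest.

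These bottles bear on the counts. Without immature bottle 1, 17 of the 63 unigenes were lower at an unadjusted p of at most 0.05 by limma in place of 8, or 27.0% beside 9.58% of all unigenes in the same fit. In that fit 27 in place of 13 were separated and lower, or 42.9% beside 21.2%. Without mature bottle 1, 2 in place of 1 were higher at that p, or 3.17% beside 6.82%, and 10 in place of 4 were separated and higher, or 15.9% beside 14.9%. Fewer bottles separate more easily, so these shares are to be read beside those of all unigenes in the same fit. The part of RNA quality or of library preparation in this was not tested.

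**Figure D5:**
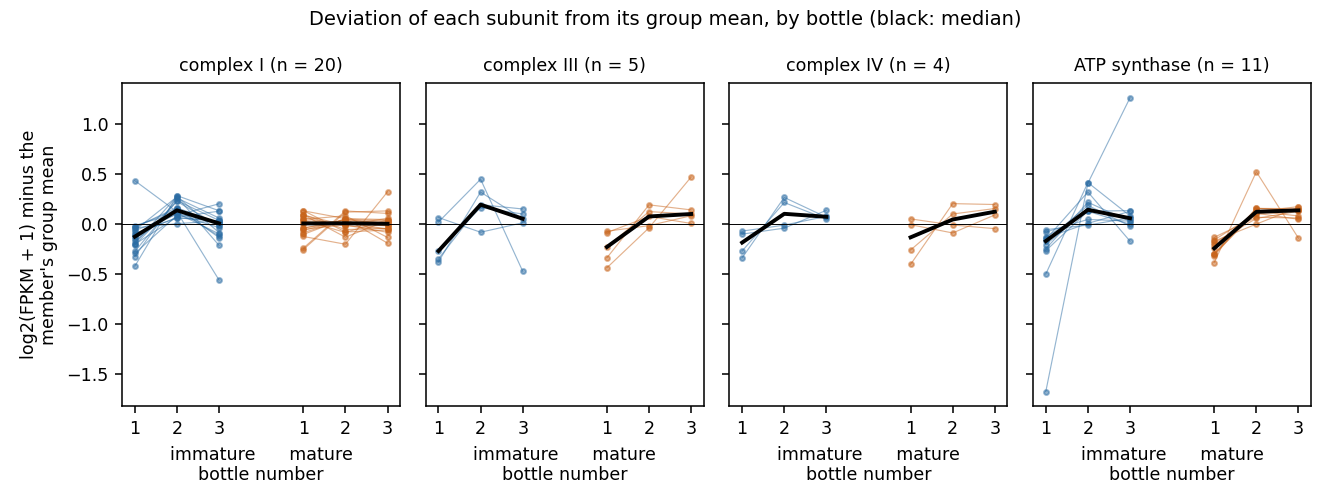
Deviation of log2(FPKM + 1) from the mean of its group for each unigene of complexes I, III, IV and ATP synthase in bottles 1, 2 and 3 of immature and mature mycelia. Thin lines join a unigene and the black line is the median. The median of bottle 1 lies low in both groups for ATP synthase (−0.17 and −0.24), complex IV (−0.18 and −0.13) and complex III, and only in the immature group for complex I. In complexes III and IV not every unigene follows the median. The Rieske unigene lies above its mean in immature bottle 1, and COX6A in mature bottle 1.

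Ubiquinone carries electrons from complexes I and II and the alternative enzymes to complex III. Of 9 unigenes of its synthesis, 3 were lower at an unadjusted p of at most 0.05 (beside 9.33% of all unigenes), 0 were higher (beside 6.09%), and 1 was lower at the study's thresholds (beside 1.82%). This 1, DN9336_c0_g2, matched a 4-hydroxybenzoate polyprenyltransferase, the enzyme that attaches the isoprenoid tail. It had 397.54, 275.19 and 434.86 FPKM in immature and 146.9, 152.27 and 128.18 in mature bottles. The groups were far apart, and the log2 ratio was −1.34 (SE 0.19, limma adjusted p = 0.0915), with an unadjusted p of at most 0.05 in all 6 fits without 1 bottle and an adjusted p by limma of 0.0368 among unigenes of at least 500 bases.

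The other unigene of the same enzyme name, DN8250_c0_g1, had means of 37.9 ± 6.01 and 33.1 ± 3.39 FPKM (SD, n = 3 each) with overlap. The late-step enzymes 5-demethoxyubiquinone hydroxylase (DN8730_c0_g1) and COQ6 (DN4364_c0_g1) had log2 ratios of −0.29 (limma adjusted p = 0.250) and −0.58 (limma adjusted p = 0.310), both with separated bottles. The p of COQ6 stayed at most 0.05 in 1 of 6 fits without 1 bottle.

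Among 19 unigenes of further assembly and membrane insertion factors, 2 were higher (beside 6.09% of all unigenes) and 1 was lower (beside 9.33%) at an unadjusted p of at most 0.05. Their bottles were separated for 7 lower unigenes (beside 14.2% of all) and 4 higher ones (beside 8.69%). Those named MSS51 (DN4314_c0_g2), OXA1L (DN1397_c0_g1) and SCO1 (DN6157_c0_g1) were among the 7. A unigene named BCS1 (DN4177_c0_g2), after the factor that inserts the Rieske protein into complex III, had 31.5, 25.96 and 31.2 FPKM and then 43.32, 45.14 and 44.87 FPKM, all mature bottles above (log2 ratio 0.58, SE 0.11, limma adjusted p = 0.140). Most unigenes of this list bear a BCS1 name, and they went both ways. DN7933_c0_g2, DN7933_c0_g3 and DN4367_c0_g1 were separated and lower (log2 ratios −0.59, −0.47 and −0.22). DN169_c0_g1 and DN6139_c0_g1 were separated and higher (2.82 and 0.25). All of these had an unadjusted p above 0.05 by limma. DN169_c0_g1, of only 206 bases, had 20.67, 0 and 20.19 FPKM and then 46.68, 58.43 and 55.53 FPKM. Its log2 ratio had an SE of 1.20 and was as low as 1.34 when 1 bottle was left out. The CBP3-like DN8629_c1_g1, named for a yeast factor of cytochrome b synthesis, had 12.62, 12.8 and 15.32 FPKM and then 22.25, 18.22 and 19.94 FPKM (log2 ratio 0.54, SE 0.14, limma adjusted p = 0.199). ATP10 (DN2280_c0_g2), an assembly factor of ATP synthase, had 16.37, 15.84 and 17.79 FPKM and then 9.96, 10.02 and 9.42 FPKM, all mature bottles below (log2 ratio −0.71, SE 0.13, limma adjusted p = 0.125). DN4177_c0_g2, DN8629_c1_g1 and DN2280_c0_g2 kept an unadjusted p of at most 0.05 in each of the 6 fits without 1 bottle.

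Other lists around the chain showed small numbers at the same unadjusted p, to be read beside the 6.09% of all unigenes that were higher and the 9.33% that were lower. Of 15 V-ATPase unigenes, the proton pump of vacuoles, 1 was higher and 0 lower, and the median of their log2 ratios was 0.01. The higher unigene was catalytic subunit A (DN6935_c0_g1), with 51.27, 52.87 and 48.25 FPKM and then 60.64, 64.57 and 65.45 FPKM (log2 ratio 0.32, SE 0.09, limma adjusted p = 0.210). Both unigenes of the plasma membrane proton pump, which spends ATP to move protons out of the cell, were lower. DN2009_c0_g3 had 145.81, 153.76 and 152.11 FPKM and then 103.63, 104.19 and 97.96 FPKM (log2 ratio −0.56, SE 0.08, limma adjusted p = 0.0982). DN2009_c0_g1 had 123.4, 126.61 and 121.01 FPKM and then 79.96, 91.5 and 89.95 FPKM (log2 ratio −0.50, SE 0.09, limma adjusted p = 0.133). The groups were well separated in both.

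Of 15 unigenes of mitochondrial protein import, 2 were higher and 1 was lower. The receptor tom20 (DN10470_c0_g1) and the motor subunit tim16 (DN4553_c0_g2) had log2 ratios of 0.66 (SE 0.16, limma adjusted p = 0.181) and 0.46 (SE 0.11, limma adjusted p = 0.186). The membrane tether tim44 (DN8758_c0_g1) had −0.48 (SE 0.12, limma adjusted p = 0.190), all at an unadjusted p of at most 0.05. Of 4 unigenes of cristae and prohibitins, MIC60 (DN8522_c1_g1), which shapes the inner membrane, was lower (log2 ratio −0.46, limma adjusted p = 0.289), in 1 of 6 fits without 1 bottle.

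Of 37 mitochondrial ribosome unigenes, 1 was higher and 3 lower at that p (median log2 ratio −0.07). The words for the citrate cycle matched 31 unigenes, 4 higher and 3 lower, of which 8 belong to other enzymes such as homocitrate synthase. The remaining 23 still include unigenes named DHKTD1, a glyoxysomal citrate synthase (DN5301_c0_g1) and a cytoplasmic malate dehydrogenase (DN8943_c0_g1), so not all stand for the mitochondrial cycle. Of these 23, 0 were higher and 2 were lower. The lower ones were a malate dehydrogenase unigene (DN168_c0_g1, log2 ratio −0.60, limma adjusted p = 0.228) and the NADP-dependent isocitrate dehydrogenase (DN9253_c0_g1, log2 ratio −0.44, limma adjusted p = 0.277), which makes NADPH outside the NADH-producing cycle. The words for carriers matched 30 unigenes with 1 higher and 2 lower, but 24 of these were nucleoporins or aquaporins. The remaining 6, which exchange ADP, ATP, phosphate or pyruvate or form outer membrane pores, had 0 past that p by limma and a median log2 ratio of −0.02. Of 15 reference unigenes (actin, tubulin, glyceraldehyde-3-phosphate dehydrogenase and elongation factor 1-alpha), 2 were higher and 0 lower, with a median of −0.08.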

How the data were processed

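RNA of 6 libraries, 3 bottles per group, was sequenced as paired ends from stranded mRNA libraries. The authors assembled the reads with Trinity, clustered contigs with TGICL and estimated abundance with RSEM; their deposited FPKM are given for 17030 unigenes with names from 5 databases. No genome was used, and sequences were not used here. Columns were mapped to bottles by name, and 0 columns of values were left unmapped. log2(FPKM + 1) of the 16496 unigenes with a mean FPKM above 1 was compared with limma 3.58.1 in R 4.3.3 (trend=TRUE, two-sided, no covariates), with Benjamini-Hochberg adjustment over all of them, and checked on simulated data. Unigenes were named by p with separated groups, by level, by size of the log2 ratio and by shared Nr proteins; whole small groups were named too, and a few more after their values were seen. The 63 members and all lists were chosen with earlier results of these data known. The carrier and citrate cycle lists were divided by protein name. Alternatives were a pseudocount of 0.1, other filters, TPM and quantile scaling, no variance trend, a replicate block, unigenes of at least 500 bases and leaving out each bottle. The values of 1 complex I unigene are included in counts and sums but not reported here. Figures used Python 3.11.15 and matplotlib 3.10.9.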

Additional observations from a re-analysis of the deposited data

How the results depend on the processing

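The members' median log2 ratio of −0.12 kept its sign in all settings and ran from −0.20 to −0.04 when 1 bottle was left out. The count of members at an adjusted p under 0.05 was 0 and became 3 (cytochrome b2 unigenes) among unigenes of at least 500 bases. Fewer unigenes were tested there, and the unadjusted p of these 3 was lower too. For DN8918_c1_g3 it was 7.73e-05 by limma in place of 0.000304. In that fit the count over all unigenes went from 11 to 101, and that at the study's thresholds from 496 to 261. Members higher at an unadjusted p of at most 0.05 went from 1 to 0, since subunit J is shorter. Leaving out 1 bottle gave 0 to 5 unigenes in all at an adjusted p under 0.05. For members it gave 6 to 17 lower and 0 to 2 higher at the unadjusted p, and 14 to 27 separated and lower and 4 to 10 separated and higher, with the highest counts without immature bottle 1 (lower) or mature bottle 1 (higher); the cause was not tested. Across all unigenes tested, which are not independent, same-numbered bottles did not deviate together (r = −0.09, −0.04 and −0.01). Among the 63 members, bottle 1 was lowest in both groups for 26 (41.3%), beside 10.1% of all unigenes tested. For ATP synthase this held for 10 of 11 unigenes. Whether bottles of the same number belong together was not tested. A replicate block gave 0 unigenes at an adjusted p under 0.05, and 10 members lower and 1 higher at the unadjusted p. Quantile scaling turned the split at the study's thresholds, as fitted here by limma, from 195 higher and 301 lower to 247 and 228. For single unigenes, 702 comparisons with other settings kept their side of the unadjusted threshold, 5 lost it and 9 gained it; without 1 bottle, 505 kept it, 31 lost it and 16 gained it. Without 1 bottle, 26 of the 63 members changed the sign of their log2 ratio in at least 1 fit, among them 0 of the 9 past the unadjusted p with all bottles. Short unigenes and those listed at 0 rest on few fragments, and without read counts their error is not known.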

Other observations

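The Nr matches of 4 of the 5 cytochrome b2 unigenes are 3 proteins that lie within 4 consecutive entry numbers of that database, and 8 other unigenes matched entries in this stretch or up to 2 numbers beside it. They were looked at after the cytochrome b2 values were seen. DN8870_c0_g8, matched to a 2,3-dimethylmalate lyase, had 13.13, 20.01 and 10.93 FPKM in immature and 6.98, 5.89 and 6.15 in mature bottles, without overlap (log2 ratio −1.06, SE 0.24, limma adjusted p = 0.177). DN5968_c0_g2, which has no Swiss-Prot name, had 12.19, 9.86 and 12.51 FPKM and then 6.59, 7.2 and 6.89 FPKM (log2 ratio −0.66, SE 0.16, limma adjusted p = 0.190). The versatile peroxidase unigenes DN8870_c0_g4 and DN8870_c0_g5 of the same stretch had log2 ratios of 1.18 (SE 0.75, limma adjusted p = 0.487) and −0.55 (SE 0.27, limma adjusted p = 0.387), and their groups overlapped. DN6330_c0_g1, DN6330_c0_g2 and DN7233_c0_g1 had log2 ratios of 0.43, 0.24 and 0.07, with overlap, and DN6330_c0_g3 was listed at 0 in 5 libraries. The number of a database entry is not a map position, and the position of these unigenes in the genome was not analysed here.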
